A study of Homo sapiens with 4 samples.

Results

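Cells detect and mend DNA double-strand breaks with a set of sensor kinases, checkpoint kinases, recombination proteins, end-joining proteins and the Fanconi anemia proteins, and 41 genes of this kind were followed here. They were picked by gene symbol, and all 41 were found among the 16376 genes of the deposited table. RNA was poly(A)-selected and sequenced from HCT116, a human colon cancer cell line known to be mismatch repair-deficient, in 2 samples exposed to hydrogen peroxide (H2O2) and 2 untreated samples (Control). Neither the dose of H2O2 nor its duration is in the labels. They also do not state that replicate samples were grown separately, so the p-values reflect the spread between these samples alone, which may be technical. Group A of the table was read as Control and group B as H2O2, because the table's title puts Control first, and every direction rests on that reading.

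In these pathways the complex of MRE11, RAD50 and NBN senses a broken end and activates the kinase ATM, while ATR, held on single-stranded DNA by its partner ATRIP, responds to resected ends and stalled forks. ATM and ATR act through the kinases CHEK2 and CHEK1, and the break is then either rejoined by Ku, DNA-PKcs and ligase IV or copied from the sister chromatid with BRCA1, PALB2, BRCA2, RAD51C, XRCC2 and XRCC3. The Fanconi core complex attaches ubiquitin to the FANCD2 and FANCI pair at crosslinked DNA. H2O2 oxidises bases and breaks DNA strands.

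The deposited values are the authors' group means of counts divided by library size factors. Each mean was solved for the 2 whole read counts behind it, which gave 7365032 and 6858809 reads over the listed genes for H2O2 and 7309731 and 6892854 for Control. The table carries no replicate numbers, so the libraries of a group are called its deeper and its shallower library, and a normalized count is a recovered count divided by its library's size factor. Of 10 markers fixed for an epithelial colon line 8 were listed (all but CEACAM5 and LGALS4), with summed normalized counts of 12368 to 12940 with H2O2 and 9904 to 11647 in Control. Of the 6 leukocyte, 6 fibroblast and 5 endothelial markers 2, 3 and 1 were listed. The leukocyte sums were 27.0 and 22.9 with H2O2 and 8.63 and 17.5 in Control, and the monocyte marker CD14 passed in the authors' deposited table (ratio 3.65, adjusted p = 0.0270), with 18.3 and 10.4 normalized counts with H2O2 and 4.79 and 3.08 in Control. The endothelial sums, from KDR alone, were 13.5 and 8.32 with H2O2 and 6.71 and 6.16 in Control. The fibroblast sums were 754 to 813 with H2O2 and 933 to 1017 in Control, led by the collagen gene COL1A1. COL1A1 also passed in the authors' deposited table, lower with H2O2 (ratio 0.734, adjusted p = 0.0211). The epithelial marker CLDN4 passed there as well, higher with H2O2 (ratio 1.39, adjusted p = 0.00831), and the other listed markers did not pass. The part of these markers in any result was not tested.

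Most of the 41 genes did not pass the test, and their differences were small. In the authors' deposited table RAD51C was higher with H2O2, FANCA was lower, and the other 39 members did not pass an adjusted p of 0.05. That is 4.88% of the members, against 7.19% of all genes called in either direction, 2.58% of all genes called higher and 4.62% called lower. Without adjustment 8 of 41 members (19.5%) had a p under 0.05 in the authors' deposited table, against 19.6% of all genes. The members' median log2 ratio was -0.03 in the authors' deposited table, and that of all genes was 0.00. A second fit, limma on the recovered libraries as log2(normalized count + 1), called FANCA alone among the members, and 671 of all genes (4.1%). FANCA was also the 1 member called with a pseudocount of 0.5 or 5, with TMM factors or with genes of a mean of at least 50, where 4.05%, 4.18%, 3.89% and 3.8% of the genes tested were called. Over the 41 members the normalized counts summed to 27466 and 27936 with H2O2, and to 30649 and 26742 in Control, so the H2O2 sums lay between those of the control libraries.

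The limma fit also gives each change an interval. For all 41 members the 95% interval of the log2 fold change lay within 2-fold in either direction, and for 33 of them (80.5%) it lay within 1.5-fold, against 8792 of all 16376 genes (53.7%) and 72.2% of the genes with a mean of at least 50. The 8 members whose intervals crossed the 1.5-fold bound were ATM, MRE11A, BRCA2, RAD51C, RAD51AP1, RAD52, PRKDC and FANCA. Crossing reflects the size of the estimate as well as the width of the interval. FANCA and RAD51C crossed it with limma SEs of 0.10 and 0.11, whereas XRCC6, with an SE of 0.21, did not. Both H2O2 libraries stood above both control libraries for 9 members (22%) and below both for 9 (22%), against 26.3% and 25.6% of all genes, and for 23 members the groups overlapped.

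**Figure D1:**
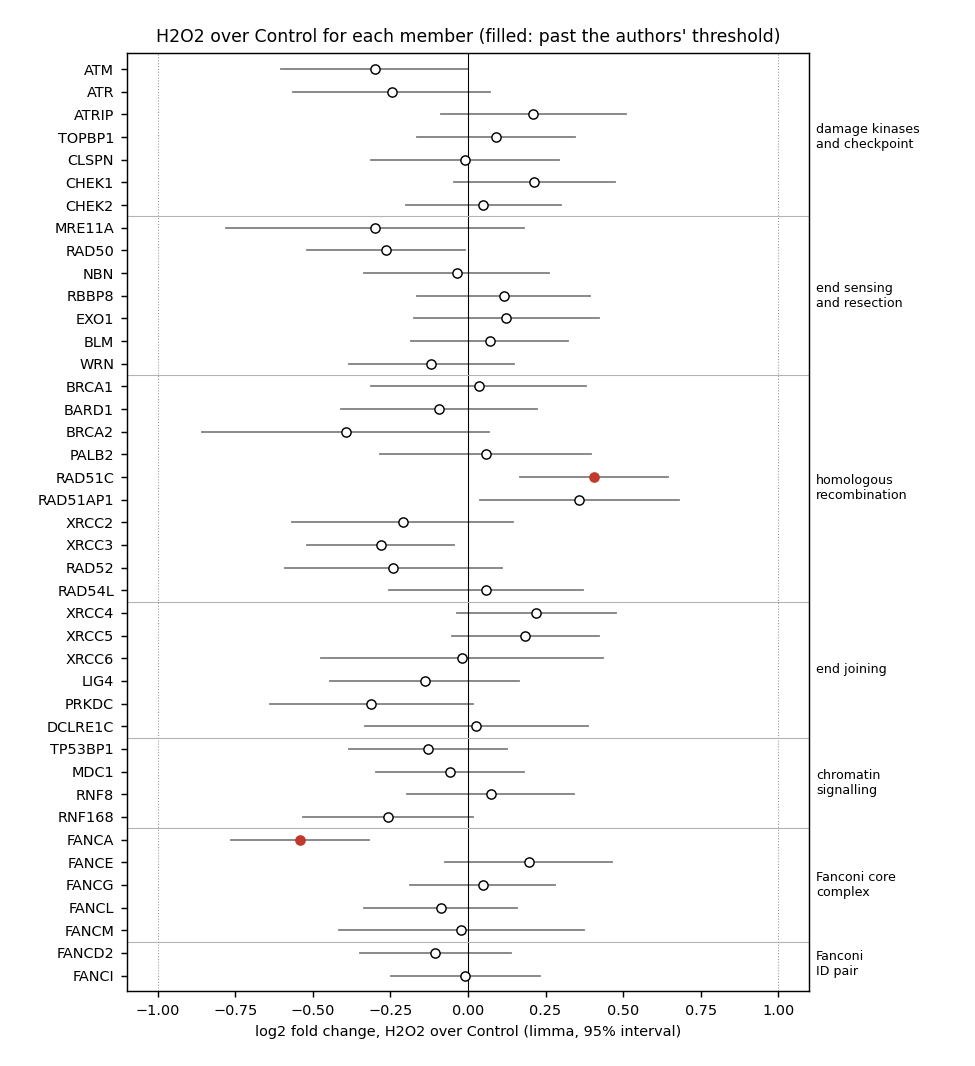
Limma log2 fold change of H2O2 over Control (x axis) with its 95% interval for each of the 41 members (y axis, grouped by role), with dotted lines at a log2 fold change of 1 in either direction. The 2 filled points, RAD51C at 0.41 and FANCA at -0.54, are the members past the authors' threshold, and no interval reaches a dotted line.

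FANCA and RAD51C are shown first by their promoters, since they are the 2 members past the threshold and differ in direction. Each sequence is the 250 bases before the gene's start in RefSeq (GRCh38.p14), which is a later build than the hg19 named in the submitters' processing notes. FANCA lies on the minus strand at chr16:89816648-89816897 and RAD51C on the plus strand at chr17:58692323-58692572, for the first of its listed starts. Capitals mark an E2F-type word (TTTCGCGC, TTTGGCGC, TTTCCCGC or TTTGCCGC) or a CCAAT box, the binding word of NF-Y, on either strand.
FANCA: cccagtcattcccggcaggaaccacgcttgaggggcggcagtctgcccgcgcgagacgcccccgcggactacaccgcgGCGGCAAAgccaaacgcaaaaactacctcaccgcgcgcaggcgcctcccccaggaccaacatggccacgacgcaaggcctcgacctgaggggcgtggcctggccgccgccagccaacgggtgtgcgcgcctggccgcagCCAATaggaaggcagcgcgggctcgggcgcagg
RAD51C: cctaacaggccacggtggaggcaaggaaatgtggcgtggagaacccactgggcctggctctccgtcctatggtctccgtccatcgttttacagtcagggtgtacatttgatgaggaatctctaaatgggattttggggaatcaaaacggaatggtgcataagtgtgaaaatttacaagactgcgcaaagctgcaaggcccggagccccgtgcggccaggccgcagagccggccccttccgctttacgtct
FANCA held 1 E2F-type word and 1 CCAAT box in this window, and RAD51C held neither. Promoters were found for 36 of the 41 members. FANCA was the 1 member (2.78%) with such an E2F-type word, against 2.79% of 27305 promoters of the same length, and 18 members (50%) held a CCAAT box, against 33.0%. A search for the AP-1-type words TGACTCA and TGAGTCA found 1 member, DCLRE1C, against 4.16% of all promoters. These matches describe letters in the window.

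The kinases at the head of the response did not pass the threshold. ATM had 379 and 368 normalized counts with H2O2 and 533 and 398 in Control, which gave a log2 ratio of -0.32 (adjusted p = 0.171) in the authors' deposited table. The H2O2 libraries were below both controls, but the controls were farther apart from each other than the shallower of them was from either H2O2 library. ATR had 261 and 336 normalized counts with H2O2 and 383 and 321 in Control, with a log2 ratio of -0.24 in the authors' deposited table (adjusted p = 0.363), and the groups overlapped. Its partner ATRIP had 221 and 230 normalized counts with H2O2 against 198 and 191 in Control, a log2 ratio of 0.21 in the authors' deposited table (adjusted p = 0.525). ATRIP is an uncertain value, since 27.9% of its exonic bases also belong to TREX1, which encodes an exonuclease.

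CHEK1, the checkpoint kinase downstream of ATR, had 555 and 564 normalized counts with H2O2 and 523 and 444 in Control. CHEK2, the kinase downstream of ATM, had 477 and 459 with H2O2 and 436 and 468 in Control. The H2O2 libraries of CHEK1 lay above both controls, while those of CHEK2 overlapped them, and neither gene passed in the authors' deposited table (adjusted p = 0.436 and 0.905). TOPBP1, which activates ATR, and CLSPN (claspin), which brings CHEK1 to ATR, had values near 0 in the authors' deposited table (log2 ratios 0.08 and -0.03). The median over the 7 genes of this group was 0.05.

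**Figure D2:**
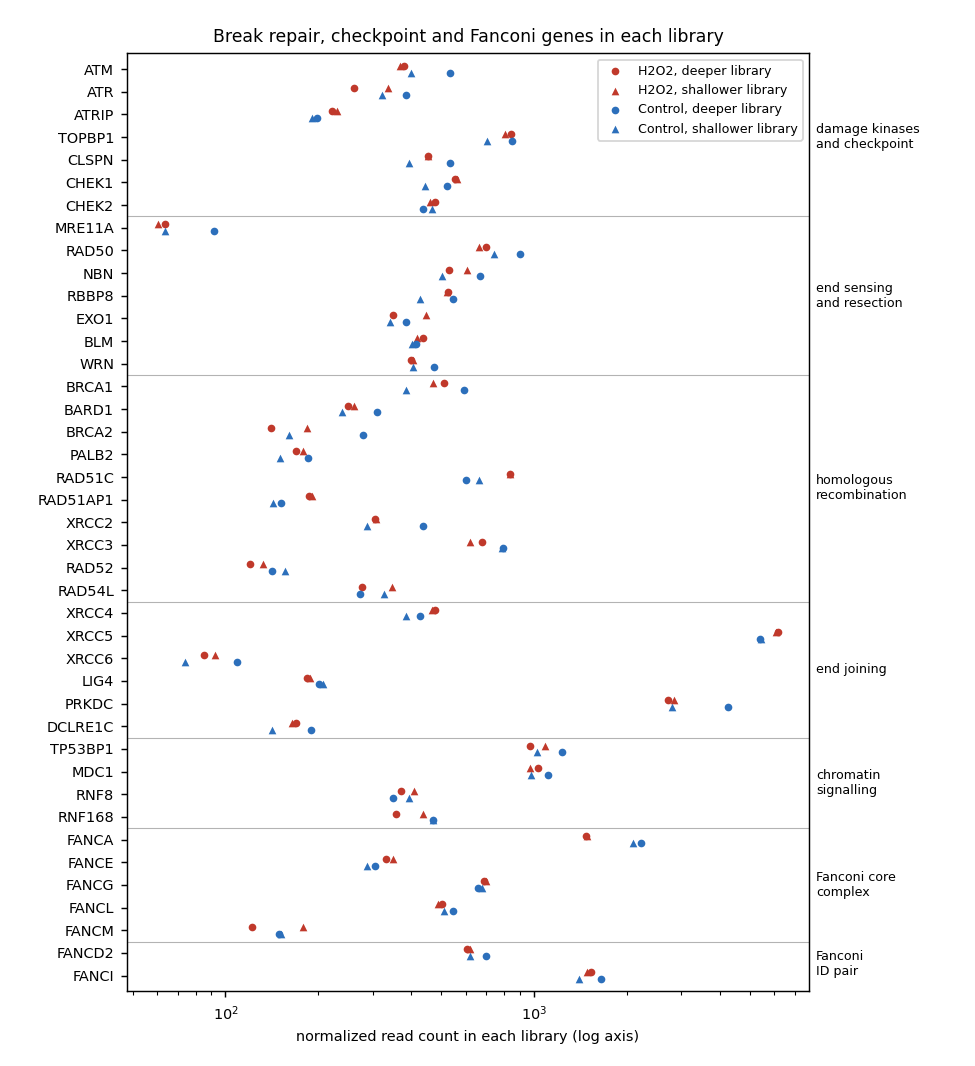
Normalized read count in each of the 4 libraries (x axis, log scale) for the 41 members (y axis, grouped by role), with H2O2 in red above Control in blue, circles for the deeper and triangles for the shallower library of a group. FANCA stands out as lower with H2O2 and RAD51C as higher, and for PRKDC, BRCA2 and BRCA1 the deeper control library lies well to the right of the shallower one.

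Genes that sense and resect broken ends held no call in 7 members. MRE11A, the nuclease of the sensor complex, whose splicing is known to be impaired in this mismatch repair-deficient line, had 63.7 and 60.3 normalized counts with H2O2 and 92.0 and 63.6 in Control. That is the lowest level of the 41 members per length, at 8.99 normalized counts per kb of its longest transcript with H2O2 and 11.3 in Control. RAD50, the complex's structural subunit, had 697 and 664 normalized counts with H2O2 and 898 and 743 in Control, without overlap, and a log2 ratio of -0.27 in the authors' deposited table (adjusted p = 0.223). RAD50 is uncertain as well, because 79.7% of its exonic bases in GENCODE release 29 are shared with other annotated genes, chiefly AC116366.3. No gene of that symbol is among the listed genes. NBN, the third subunit, had a log2 ratio of -0.05 in the authors' deposited table.

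Among the nucleases and helicases that lengthen the resected strand, EXO1 had 350 and 446 normalized counts with H2O2 and 385 and 342 in Control, with overlapping groups and a log2 ratio of 0.13 in the authors' deposited table (adjusted p = 0.715). RBBP8, which encodes the resection factor CtIP, and the helicase genes BLM and WRN had log2 ratios of 0.11, 0.07 and -0.12 in the authors' deposited table. In all 7 genes of this group, and in 7987 of all 16376 genes, the deeper control library held more normalized reads than the shallower one. The median log2 difference was 0.27 over the group and -0.01 over all genes.

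Homologous recombination held the 1 gene that rose. RAD51C, which acts in complexes with XRCC2 or XRCC3 in strand exchange, had 836 and 838 normalized counts with H2O2 and 602 and 663 in Control. The H2O2 libraries were nearly equal and stood above both controls. It rose 1.32-fold in the authors' deposited table (log2 ratio 0.40, adjusted p = 0.0374), and by 0.41 ± 0.11 on the log2 scale in limma (SE, 2 libraries per group), where it did not pass (adjusted p = 0.0549). Its log2 fold change lay between 0.34 and 0.48 when any 1 library was left out, and its adjusted p was 0.423 without the deeper and 0.338 without the shallower H2O2 library. No exonic base of RAD51C is shared with another annotated gene.

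The neighbouring member in size of change was RAD51AP1, whose product promotes strand pairing, with 186 and 191 normalized counts with H2O2 and 151 and 143 in Control. Its groups did not overlap either, and it did not pass (log2 ratio 0.36, adjusted p = 0.236 in the authors' deposited table). XRCC3 and XRCC2, whose products work in complexes with that of RAD51C, lay the opposite way in value. XRCC3 had 681 and 621 normalized counts with H2O2 and 791 and 790 in Control, and XRCC2 had 305 and 308 with H2O2 and 438 and 287 in Control. Neither gene passed in the authors' deposited table (adjusted p = 0.216 and 0.354). The XRCC2 groups overlapped, with the shallower control below both H2O2 libraries, so its negative value rested on the deeper control. XRCC3 shares 76.7% of its exonic bases with KLC1 on the opposite strand, a kinesin light chain gene. KLC1 fell, with an H2O2 to Control ratio of 0.648 in the authors' deposited table (adjusted p = 0.00106). The sources used here do not say whether the counting used strand, so reads from the shared bases cannot be told apart.

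BRCA1, a ubiquitin ligase that promotes resection and loads the recombination machinery, had 512 and 469 normalized counts with H2O2 and 592 and 386 in Control. The control libraries lay 1.53-fold apart with both H2O2 libraries between them, and the log2 ratio was 0.00 in the authors' deposited table. The limma estimate was 0.03 with a 95% interval of -0.31 to 0.38. BARD1, the partner of BRCA1, and PALB2, which bridges BRCA1 and BRCA2, had log2 ratios of -0.11 and 0.05 in the authors' deposited table. BRCA2, which promotes strand exchange on resected DNA, had 141 and 184 normalized counts with H2O2 and 279 and 161 in Control. Its ratio of 0.739 in the authors' deposited table (adjusted p = 0.0823) rested on the deeper control, since the log2 fold change was 0.00 in limma without that library and -0.79 without the shallower one. RAD52 and RAD54L, which act in annealing and strand exchange, had log2 ratios of -0.24 and 0.06 in the authors' deposited table.

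End joining held no call among 6 members. PRKDC, the catalytic subunit of DNA-PK, had 2713 and 2852 normalized counts with H2O2 and 4254 and 2801 in Control. The shallower control lay between the H2O2 libraries and the deeper one lay 1.52-fold above it. PRKDC had an H2O2 to Control ratio of 0.789 in the authors' deposited table (adjusted p = 0.0852), and its log2 fold change in limma was -0.01 without the deeper control and -0.61 without the shallower. XRCC4, the scaffold of ligase IV, had 479 and 466 normalized counts with H2O2 and 427 and 385 in Control, without overlap, and a log2 ratio of 0.22 (adjusted p = 0.415) in the authors' deposited table. LIG4, the ligase, had 183 and 187 with H2O2 and 201 and 207 in Control, and DCLRE1C, which encodes the hairpin-opening nuclease Artemis, had a log2 ratio of 0.01 in the authors' deposited table.

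The Ku subunits were counted at very different levels. XRCC5 (Ku80) had 6189 and 6100 normalized counts with H2O2 and 5384 and 5423 in Control, the highest level per length of the 41 members, at 1634 normalized counts per kb with H2O2 and 1437 in Control. XRCC6 (Ku70), its obligate partner as a protein, had 84.9 and 92.6 normalized counts with H2O2 and 109 and 73.9 in Control, or 32.8 and 33.8 per kb. Of the 75-base words of XRCC6's longest transcript, 6.60% occur in another annotated transcript, that of the pseudogene XRCC6P2. No exonic base of XRCC6 is shared with another annotated gene. The XRCC6 count is an uncertain measure of its RNA level, and the cause of the low count was not tested. The log2 ratios were 0.19 for XRCC5 and -0.05 for XRCC6 in the authors' deposited table.

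Of the 4 genes that mark chromatin around a break, none passed. RNF168, a ubiquitin ligase that modifies histone H2A, had 356 and 436 normalized counts with H2O2 and 472 and 471 in Control, with no overlap and a log2 ratio of -0.25 (adjusted p = 0.318) in the authors' deposited table. RNF8, the ligase that acts before it, had overlapping groups and a log2 ratio of 0.07 in the authors' deposited table (adjusted p = 0.857). TP53BP1 and MDC1, scaffold proteins at the break, had slightly negative values (log2 ratios -0.13 and -0.06 in the authors' deposited table), and 28.7% of the exonic bases of TP53BP1 are shared with TUBGCP4.

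The Fanconi core complex held the 1 member that fell. FANCA, a core subunit, had 1477 and 1487 normalized counts with H2O2 and 2222 and 2096 in Control. The libraries within each group lay close together and the groups were far apart. FANCA fell, with an H2O2 to Control ratio of 0.687 in the authors' deposited table (log2 ratio -0.54, adjusted p = 0.00104), and fell by 0.54 ± 0.10 on the log2 scale in limma (SE, 2 libraries per group, adjusted p = 0.00896). With any 1 library left out the log2 fold change lay between -0.58 and -0.50. Leaving out the deeper H2O2 library gave a limma adjusted p of 0.180, and leaving out the shallower gave 0.122, with the spread then coming from the control libraries alone. FANCA shares 23.6% of its exonic bases with ZNF276 on the opposite strand, a zinc finger gene that fell, with a ratio of 0.662 in the authors' deposited table (adjusted p = 2.92e-04). ZNF276 had 940 and 907 normalized counts with H2O2 and 1333 and 1458 in Control. Whether the counting used strand is not given in the sources used here, so reads from the shared bases cannot be told apart.

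None of the other core members passed. FANCE, which links the core to FANCD2, had 331 and 349 normalized counts with H2O2 and 306 and 288 in Control, the highest log2 ratio of the group at 0.20 in the authors' deposited table (adjusted p = 0.518). FANCG, FANCL, the ubiquitin ligase subunit, and FANCM, the DNA-binding translocase, stood close to 0 in the authors' deposited table (log2 ratios 0.05, -0.09 and 0.01). The substrate pair held no call. FANCD2 had 604 and 620 normalized counts with H2O2 and 698 and 621 in Control, and FANCI had 1527 and 1487 with H2O2 and 1647 and 1396 in Control. Neither passed in the authors' deposited table (adjusted p = 0.722 and 0.985), and the limma 95% intervals of their log2 fold changes were -0.35 to 0.14 and -0.25 to 0.23.

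**Figure D3:**
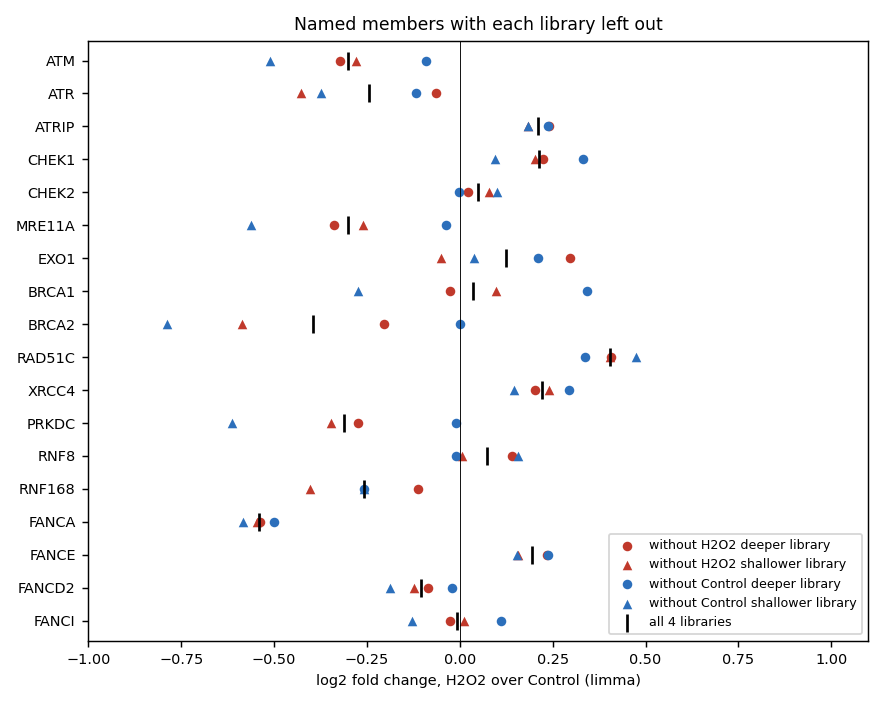
Limma log2 fold change of H2O2 over Control (x axis) for the 18 named members (y axis) with all 4 libraries (black bars) and with each library left out in turn, red for H2O2 and blue for Control, circles for the deeper and triangles for the shallower library. FANCA and RAD51C stay within a narrow range, as do ATRIP and FANCE, which are not past the authors' threshold. BRCA2, PRKDC, ATM, MRE11A and BRCA1 move apart when the deeper or the shallower control library is left out.

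The control libraries differed for the members as a set. In 32 of 41 members the deeper control held more normalized reads than the shallower, against 7987 of all 16376 genes. The median log2 difference was 0.18 over the members and -0.01 over all genes. The H2O2 libraries differed by a median of -0.02 over the members. Calls also differed when 1 library was left out, in fits whose spread came from the 2 libraries of the other group alone. Without regard to sign, the members' libraries lay a median log2 of 0.06 apart with H2O2 and 0.22 in Control. Counts of calls from such fits depend on that spread as well as on the size of the changes. Without the shallower control limma called 10 members, 9 of them lower (ATM, ATR, RAD50, BRCA2, XRCC2, XRCC3, PRKDC, TP53BP1 and FANCA) and RAD51C higher, in a fit that called 22.2% of all genes. Without the deeper control it called 3 members, FANCA lower and CHEK1 and RAD51C higher, with 8.52% of all genes called. It called no member when either H2O2 library was left out, with 1.73% of all genes called without the deeper and 3.13% without the shallower, and with all 4 libraries 6 members had an unadjusted p under 0.05 in limma.

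Long genes stood lower, by an exonic length that counts each base found in any annotated exon of a gene. It can exceed the length of the longest transcript, as for FANCA (9736 against 5451 bases) and RAD51C (6068 against 2591). Across the 41 members the log2 ratio of the authors' deposited table and the exonic length had a Spearman rho of -0.51, and across the 11304 genes of known length with a mean of at least 50 it was -0.45. Points share libraries, and the same measure between the deeper and the shallower control was 0.36 over the members and 0.45 over those genes. The 8 members of 9000 or more exonic bases had a median log2 ratio of -0.29 in the authors' deposited table and 7 of them were negative, against a median of -0.19 and 77.6% negative over all 2173 genes of that length. The 4 members under 3000 bases had a median of 0.21, against 0.14 over all genes of that length. With the length trend of all genes removed from each library, limma gave ATM a log2 fold change of -0.01, PRKDC -0.09 and BRCA2 -0.22. FANCA remained past the threshold there at -0.41 (adjusted p = 0.0146), and RAD51C passed at 0.44 (adjusted p = 0.0152), in a fit that called 5.05% of the 13933 genes tested.

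**Figure D4:**
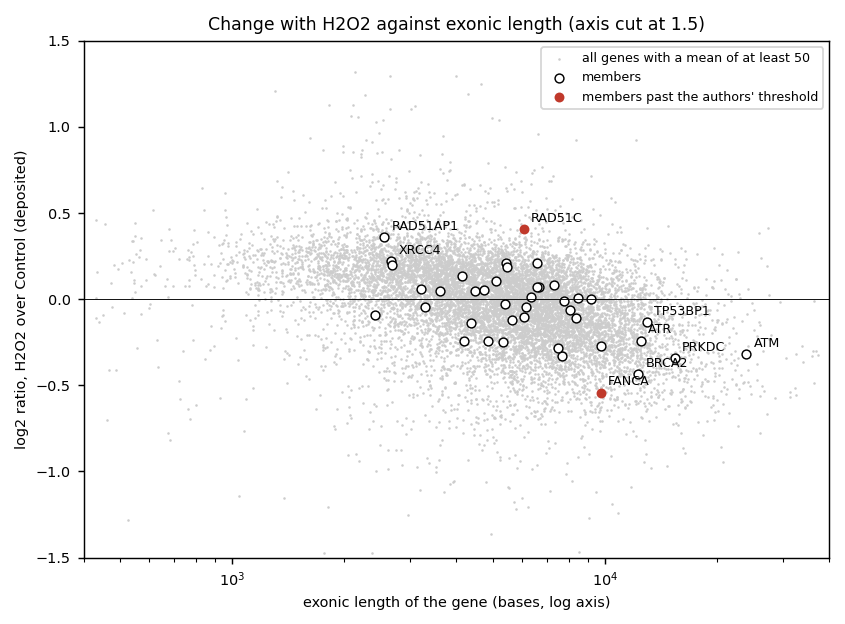
Log2 ratio of H2O2 over Control from the authors' deposited table (y axis, limited to 1.5 in either direction) against exonic length in bases (x axis, log scale), for genes with a mean of at least 50 (grey) and the 41 members (circles, filled where past the authors' threshold). The longest members (ATM, PRKDC, BRCA2, ATR, TP53BP1) lie below 0 within the downward slope of the grey points, FANCA lies near the lower edge of the points of its length, and RAD51C lies above most of them.

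Lists chosen by function name 89 further genes of the same pathways, of which SLX1A and NHEJ1 are not analysed here. The other 87 held 4 genes called higher and 4 called lower in the authors' deposited table (9.20%), against 7.19% of all genes called, 2.58% higher and 4.62% lower, with a median log2 ratio of 0.07. The checkpoint list held 3 of the higher genes, GADD45A, CDKN1A and PPM1D. GADD45A, a growth arrest gene, had 1190 and 1150 normalized counts with H2O2 and 612 and 780 in Control, and rose 1.68-fold in the authors' deposited table (adjusted p = 1.55e-06). CDKN1A, the cyclin-dependent kinase inhibitor p21, had 7115 and 8287 normalized counts with H2O2 and 3783 and 6506 in Control. It rose by 49.7% in the authors' deposited table (adjusted p = 0.00273). CDKN1A did not pass in limma with all 4 libraries (adjusted p = 0.0717). Its log2 fold change in limma was 0.24 without the deeper control and 1.02 without the shallower. PPM1D, the phosphatase WIP1 that reverses ATM signalling, had 533 and 534 normalized counts with H2O2 and 354 and 381 in Control and rose 1.45-fold in the authors' deposited table (adjusted p = 0.00488).

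The 4 genes called lower were SLX4, RIF1, POLM and POLQ. SLX4, a scaffold for structure-specific nucleases and itself a Fanconi gene, had 241 and 319 normalized counts with H2O2 and 453 and 447 in Control, and fell, with a ratio of 0.623 in the authors' deposited table (adjusted p = 2.23e-04). RIF1, which protects broken ends together with TP53BP1, had 535 and 598 normalized counts with H2O2 and 931 and 650 in Control and fell, with a ratio of 0.717 in the authors' deposited table (adjusted p = 0.00731). Its log2 fold change in limma was -0.20 without the deeper control and -0.72 without the shallower. The end-joining polymerase genes POLM and POLQ fell as well, with ratios of 0.693 and 0.735 in the authors' deposited table (adjusted p = 0.0254 and 0.0435). For POLQ the limma log2 fold change was -0.20 without the deeper control and -0.66 without the shallower. For POLM it was -0.67 and -0.40 without the deeper and the shallower H2O2 library. RIF1, POLM and POLQ did not pass in limma with all 4 libraries (adjusted p = 0.0952, 0.0546 and 0.135). RIF1 and POLQ have 18166 and 9400 exonic bases, and all genes of 9000 or more had a median log2 ratio of -0.19 in the authors' deposited table.

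RMI2, a subunit of the BLM dissolvasome, was the 1 higher gene of the recombination list. It had 219 and 189 normalized counts with H2O2 and 133 and 145 in Control. RMI2 rose 1.47-fold in the authors' deposited table (adjusted p = 0.0270), but did not pass in limma with all 4 libraries (adjusted p = 0.0623). H2AFX, which encodes the histone phosphorylated at breaks, stood at a log2 ratio of 0.20 in the authors' deposited table (adjusted p = 0.390). By list the calls were 1 higher and 1 lower of 25 recombination and junction genes, 2 lower of 13 end-joining genes, 3 higher of 19 checkpoint and cell cycle genes, 1 lower of 15 chromatin genes and none of 15 Fanconi genes, beside 7.19% of all genes, and nothing is read from such small counts. Of the 87, limma called GADD45A and PPM1D higher and SLX4 lower with all 4 libraries, 3 genes where 4.1% of all genes were called. PPM1D lost its call in limma when the deeper (adjusted p = 0.181) or the shallower H2O2 library (adjusted p = 0.141) was left out, at a log2 fold change of 0.54 in both fits. SLX4 had a log2 fold change of -0.49 with the deeper H2O2 library left out (limma adjusted p = 0.265) and -0.90 with the shallower left out (limma adjusted p = 0.00149). GADD45A kept its call in limma with any 1 library left out, at log2 fold changes of 0.58 to 0.94.

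**Figure D5:**
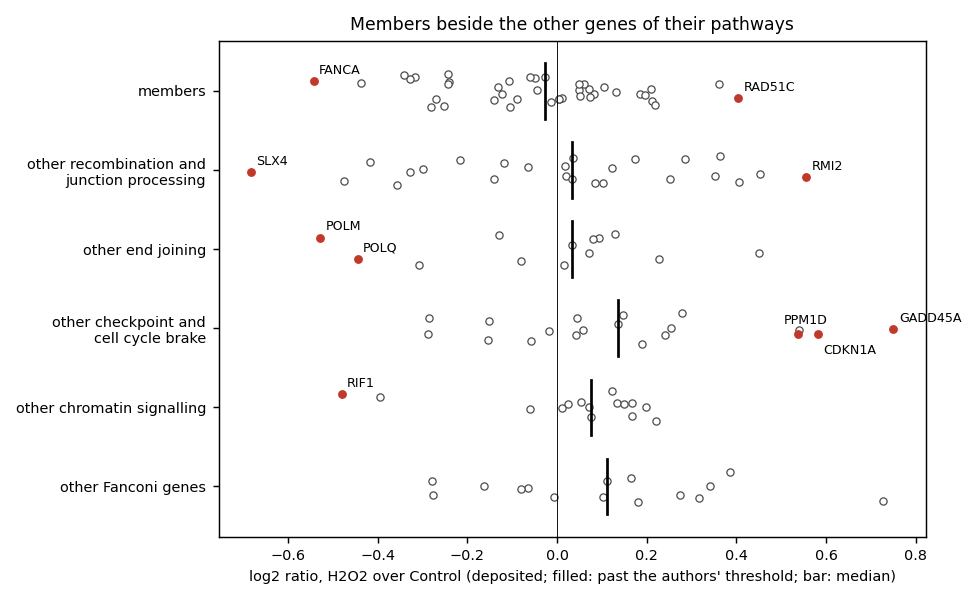
Log2 ratio of H2O2 over Control from the authors' deposited table (x axis) for the 41 members and 87 other genes of the same pathways, 1 point per gene, in 6 rows (y axis; scatter within a row carries no meaning), with a bar at each median. The 10 filled points are genes past the authors' threshold, of which GADD45A at 0.75 is farthest to the right and SLX4 at -0.68 farthest to the left.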

How the data were processed

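RNA-seq of 2 H2O2 and 2 Control samples of HCT116 cells was used. Tools listed in the submitters' processing notes, without roles or settings, are STAR, HTSeq, DESeq, Trim Galore, FastQC and CASAVA 1.8, with build hg19. Per the file headers, the authors deposited a signal (means of counts divided by size factors, overall and per group), the ratio of the group means (fold), its log2 value, and DESeq p-values with adjusted p-values. The lowest mean in the table is 5.46, and genes below it were not analysed here.

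Each group mean was solved for its whole counts within 1e-09, with 1 solution for each of the 16376 genes, and the size factors equalled medians of ratios of the recovered counts. All counts of a simulated table (100%) came back. The main result is the authors' deposited test, adjusted p under 0.05. limma 3.58.1 (R 4.3.3) with its trend option was run on log2(normalized count + 1), a scale that understates changes of low genes, and gave standard errors and alternatives, with Benjamini-Hochberg adjustment over all genes. In a simulation of H2O2 over Control on 16376 genes it found 49.0% of 49 genes changed 1.5-fold and 96.5% of 57 genes changed 2-fold. The changed genes had a mean of at least 50, and the simulation used the same fixed dispersion for every gene and no length trend. A test that models counts was not run on the recovered counts, because the deposited columns are means of 2 libraries and were not accepted as a count unit. Alternatives were pseudocounts of 0.5 and 5, TMM factors, a mean of at least 50, each library left out, and removal of the length trend. Exonic lengths and overlaps came from GENCODE release 29 (85.1% of genes matched by symbol or synonym, all 41 members). Members and lists were chosen with earlier results of these data known. Named members are those past the threshold, the highest and lowest of each role group, and the central gene of each branch. RAD51AP1, RAD50, XRCC2, XRCC3, XRCC5, XRCC6 and LIG4, the other members given by value, and the genes KLC1 and ZNF276 were chosen after their values were seen. Results for some other genes of these pathways are not reported here.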

Additional observations from a re-analysis of the deposited data

How the results depend on the processing

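The authors' test called 2 members, 8 pathway genes and 1178 genes in all. In limma with all 4 libraries the members called were 1 with a pseudocount of 1, 0.5 or 5, with TMM factors or with a mean of at least 50, and 2 with the length trend removed. The pathway genes called were 3 under each of the first 5 settings and 5 with the length trend removed. Over all genes limma called 671, 663 and 685 genes with pseudocounts of 1, 0.5 and 5, 637 with TMM factors, 460 with a mean of at least 50 and 704 with the length trend removed. Leaving out 1 library gave 0 to 10 members, 1 to 28 pathway genes and 284 to 3641 genes. The members' median log2 fold change was -0.147 to 0.0298 with a library left out, against -0.0279 in the authors' table and -0.0193 in limma with all 4 libraries, and the spread between libraries was 0.123. Without the shallower control its distance from the limma value with all 4 libraries was larger than that spread. Of 27 named genes, FANCI (0.0799) changed sign with the length trend removed. With a library left out, sign changes were seen for CHEK2 (-0.00118 to 0.101), EXO1 (-0.0505 to 0.297), BRCA1 (-0.273 to 0.343), RNF8 (-0.0105 to 0.158) and FANCI (-0.128 to 0.110). None of these was past the threshold, and the cause was not tested. No paired analysis was possible because the recovered libraries carry no replicate numbers. DESeq2 and edgeR were not run. With 2 libraries per group limma found 49.0% of 1.5-fold changes in the simulation of H2O2 over Control, so smaller changes may go unseen.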

Other observations

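Some members share exonic bases with a listed neighbour, whose values are given here without explanation. TREX1, within the exons of ATRIP, had 191 and 199 normalized counts with H2O2 and 167 and 165 in Control. TUBGCP4, which overlaps TP53BP1, had 428 and 454 with H2O2 and 506 and 399 in Control. LRRC41, which overlaps 25.1% of the exonic bases of RAD54L, had 400 and 348 with H2O2 and 397 and 363 in Control. VRK2, which together with AC007250.1 overlaps 19.7% of those of FANCL, had 468 and 442 with H2O2 and 461 and 423 in Control. KLC1, which overlaps XRCC3, had 283 and 286 with H2O2 and 437 and 441 in Control, without overlap between the groups. Of these 5 neighbours KLC1 alone passed an adjusted p of 0.05 in the authors' deposited table.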
